A study of Rattus norvegicus with 9 samples.

Results

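Expression of 37 genes of glucose breakdown, the pentose phosphate pathway and the hypoxia response was followed in cultured Schwann cells of the rat, which wrap and insulate the axons of peripheral nerves. The genes were listed by name for their known roles, with earlier results of these data known. Shares of them that passed are therefore descriptions, and do not test an independently chosen set. Each gene was measured by its brightest probe set, taken among the probe sets annotated to exactly 1 gene. In all, 35 of the 37 were measured, among 14213 genes on the array. Pkm and Gapdh were not, because the probe sets carrying their names were also assigned to a second gene; Gapdh was read through the manufacturer's control probe sets instead. Hexokinase control probe sets, which the annotation assigns to Hk1, were set beside the list.

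Primary cells from rat sciatic nerve were transfected transiently with RNAi oligonucleotides, and total RNA was taken 48 hours later. Control RNAi cells received scrambled oligonucleotides; the labels give no oligonucleotide sequences. NF1 RNAi cells received oligonucleotides against Nf1, which encodes neurofibromin, a protein that switches Ras off. The last group, NF1 RNAi + U0126 (UO126 in the sample labels), had the same knockdown together with U0126, which blocks MEK, the kinase directly upstream of ERK. Each group held 3 independent biological replicates, 1 array each, 9 arrays in all. Control cells given U0126 were not analysed here, so the inhibitor was measured in knockdown cells only, at a dose and for a time that the labels do not state. Levels below are log2(intensity + 1), listed in the order of replicates 1, 2 and 3. Differences are on the log2 scale, each ± its standard error from limma with 3 arrays per group, and p-values are limma's, adjusted by the Benjamini-Hochberg method over the 14213 genes. A gene is said to have risen or fallen where its adjusted p was under 0.05. A range given over 16 alternatives is that of the adjusted p over other ways of processing, single left-out arrays included.

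Glycolysis converts glucose to pyruvate in the cytosol. Hexokinase traps glucose, phosphofructokinase commits it to breakdown, and lactate dehydrogenase reduces the resulting pyruvate to lactate when it does not enter the mitochondria. Most of these steps are carried out by several isozymes from separate genes, which differ between tissues. The pentose phosphate pathway branches off after hexokinase and yields NADPH and ribose phosphate. Many of the same genes are induced by the hypoxia-inducible factors HIF-1α (Hif1a) and HIF-2α (Epas1), whose breakdown is set off by the prolyl hydroxylases Egln1 and Egln3 when oxygen is present. Schwann cells are known to metabolise glucose and to pass lactate to axons through monocarboxylate transporters.

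The targeted gene, Nf1, was at 6.65, 6.59 and 6.15 in the control arrays, 5.39, 5.41 and 5.44 with NF1 RNAi and 5.44, 5.72 and 5.39 with NF1 RNAi + U0126. It fell by 1.05 ± 0.13 with NF1 RNAi (adjusted p = 0.000695). Array medians lay between intensities of 95.0 and 97.1. Of the 12 Schwann cell markers 9 were measured. S100b, Ngfr and Sox10, which define these cells, had group means from 11.18 to 14.04. Control RNAi replicate 1 stood apart in 10 proliferation genes, with a median level of 8.79, against 6.79 and 6.83 for its fellow controls and 5.07 to 5.50 across the 6 knockdown arrays. Of the 9 Schwann cell markers, S100b rose and Egr2 and L1cam fell with NF1 RNAi (33.3%, near the 26.3% of all genes). With U0126, 5 of the 9 fell (55.6%, against 13.7% of all genes), namely S100b, Egr2, L1cam, Erbb3 and Foxd3. Markers of other cells were partly well expressed. Of 9 fibroblast markers, Col1a1, Col1a2 and Postn had group means from 13.36 to 13.98, Dcn, Lum and Pdgfra from 3.08 to 5.43, Col3a1 fell by 2.06 ± 0.36 with NF1 RNAi and Col1a2 fell by 0.34 ± 0.09 with U0126; the list's median was 6.21 to 7.41 over the 9 arrays. Of 8 neuron markers, Nefl (means 11.48, 9.23 and 10.51 in control, knockdown and inhibitor-treated cells), Nefm (11.70, 9.67 and 11.22) and Tubb3 (8.89, 6.59 and 5.76) fell with NF1 RNAi and Rbfox3 rose, and Nefl, Nefm and Map2 rose with U0126, while Snap25 and Stmn2 lay between 3.78 and 4.53; the list's median was 6.74 to 6.80 in control arrays and 5.53 to 6.22 in the others. Of 9 macrophage and leukocyte markers, Ptprc and Csf1r lay between 4.13 and 4.54, Laptm5 rose by 0.33 ± 0.06 with NF1 RNAi and Cd68 by 0.90 ± 0.12 with U0126 (from 6.02 to 6.92); the list's median was 5.14 to 5.59. Of 7 endothelial and mural markers, Pecam1 lay between 5.68 and 5.79, and Acta2 (means 8.44, 7.92 and 8.08) fell with NF1 RNAi. Of 3 erythroid and adipocyte markers none passed in limma (0 at an unadjusted p under 0.05 in the U0126 comparison). Their part in the results below was not tested. In these bulk samples, fewer cells of a type and less RNA per cell cannot be told apart.

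Knockdown of Nf1 raised some of the listed genes and lowered others. Among those that passed the test, Ldhb, Epas1, Aldoc and Pgam1 were the largest falls, between 1.88-fold and 4.2-fold. Pfkfb3, Eno2, Vegfa and Hk1 were the largest rises, between 1.59-fold and 1.91-fold. Of the 35 measured genes, 11 rose and 6 fell with NF1 RNAi, 48.6% in all, against 26.3% of all 14213 genes (13% higher and 13.3% lower). The median difference of the 35 was 0.005, against 0.016 for all genes. The 3 NF1 RNAi arrays lay above all 3 control arrays for 12 of the genes and below them for 9, against 41.2% of all genes whose groups did not overlap (21.2% higher and 20% lower).

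MEK inhibition in the knockdown cells changed genes of glucose uptake, hexokinase and phosphofructokinase. Pfkp, Hk2 and Slc2a1 rose by 1.63-fold to 2.58-fold, Slc2a3 fell by 2.44-fold and Hk1 by 1.48-fold. With U0126 against NF1 RNAi, 5 of the 35 rose and 5 fell, 28.6% against 13.7% of all genes (6.71% higher and 7.02% lower), with a median difference of −0.118 against 0.023. Arrays did not overlap, higher, for 6 of the 35 and, lower, for 12, against 33.9% of all genes (17.8% and 16.1%). Against control cells, NF1 RNAi + U0126 cells had 8 of the genes higher and 10 lower, 51.4% against 35.5% of all genes (17.9% higher and 17.6% lower), with a median of −0.043 against 0.042. Their arrays lay apart for 11 and 10 of the 35, against 47.2% of all genes (25.5% higher and 21.7% lower). Without NF1 RNAi replicate 2, 6 of the 35 passed in the U0126 comparison, and 1110 of all genes in place of 1951. The median signal of the 35 lay at the 72.3rd percentile of genes, a rank that also depends on the probes, and the percentages for all genes include many dim ones. Leaving out dim probe sets, those not at log2 6 or more in at least 3 arrays, kept 10161 genes, 33 listed genes among them. Of these, 3831 genes and 17 listed genes passed with NF1 RNAi, and 2100 and 11 with U0126. For NF1 RNAi + U0126 against control, 4916 and 19 passed. The shares of listed and all genes thus lay closer together than with dim probe sets included. The filter was not independent of the groups compared, since any arrays could meet it. Hk2, which passed in both comparisons with the inhibitor, was kept through its inhibitor arrays alone (6.82, 6.10 and 6.66). Its control and NF1 RNAi arrays lay between 5.26 and 5.54. The comparisons share arrays, each group serving in more than 1 of them, so their values are given side by side. Pfkm, Slc16a3, Pdk4, Pdha1, Egln1, Adm and Pgd, 7 of the 35, passed in none of the 3 comparisons.

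**Figure D1:**
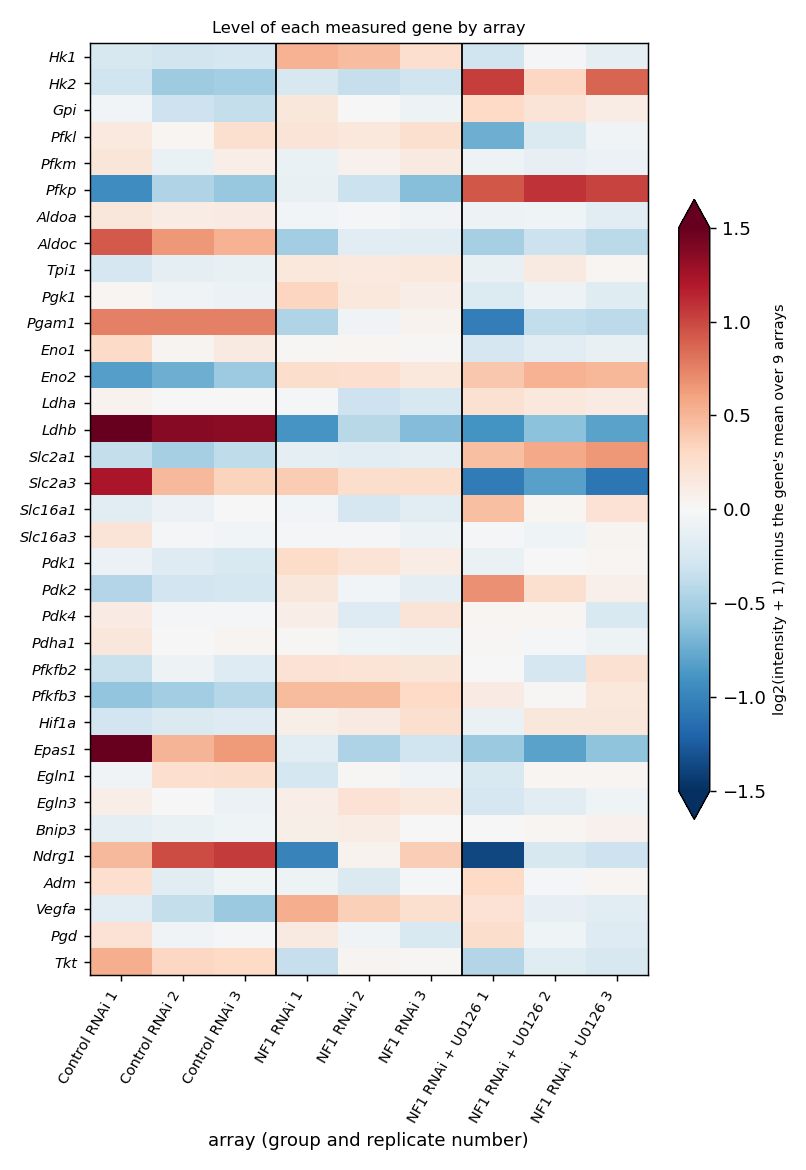
Level of each of the 35 measured genes (rows, ordered by role) in each of the 9 arrays (columns, by group and replicate number), as log2(intensity + 1) minus the gene's own mean over the 9 arrays. Colours end at 1.5 in either direction; Ldhb, Aldoc, Pgam1 and Epas1 are above their mean in the control arrays, Pfkp and Hk2 in the NF1 RNAi + U0126 arrays, and Hk1 and Pfkfb3 in the NF1 RNAi arrays.

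**Figure D2:**
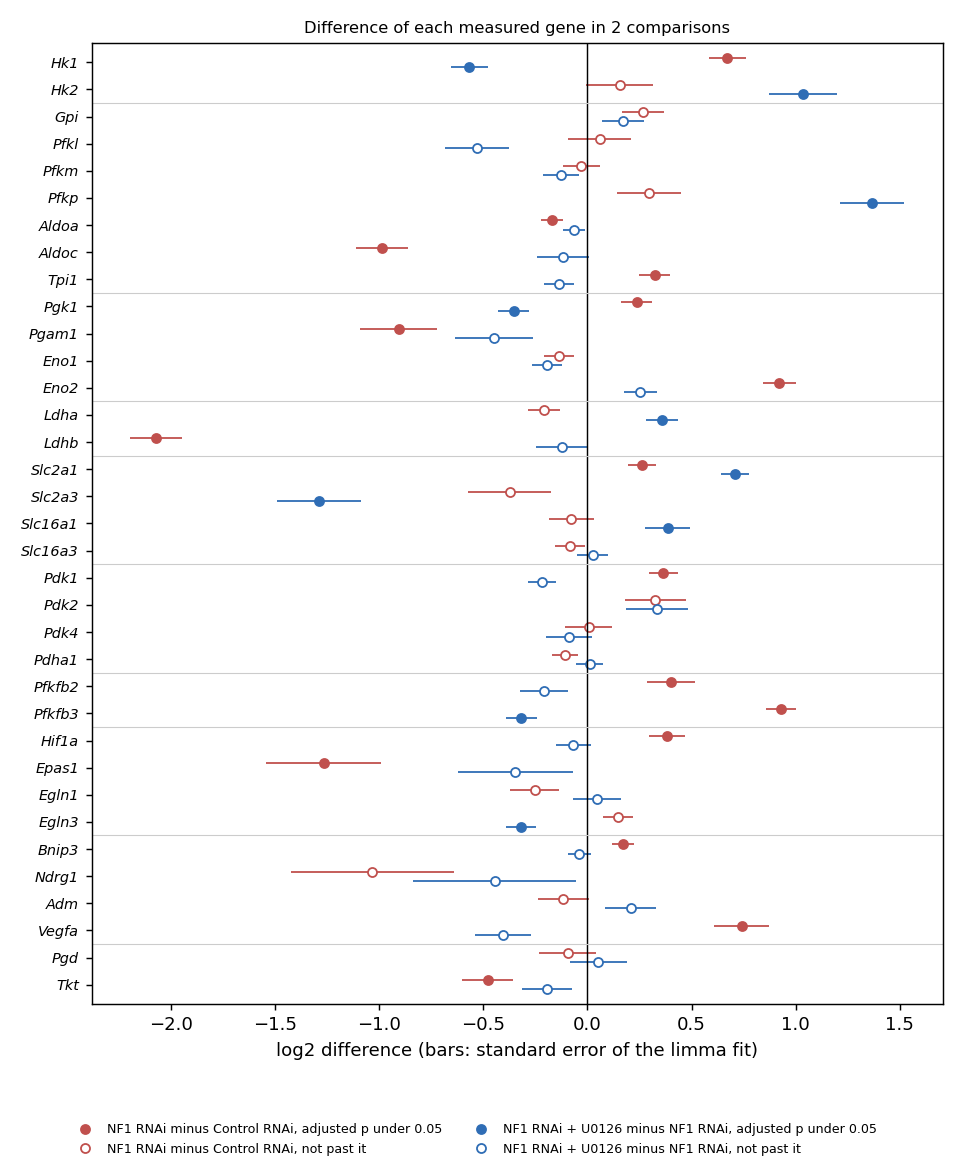
Log2 difference of each of the 35 measured genes with NF1 RNAi against Control RNAi (red) and with NF1 RNAi + U0126 against NF1 RNAi (blue), 3 arrays per group. Bars are standard errors of the limma fit, filled points passed an adjusted p of 0.05, and grey lines separate the roles; Ldhb has the largest red difference and Pfkp the largest blue one.

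Hexokinase phosphorylates glucose on entry, Hk1 being the form found in most cells and Hk2 the form known to respond to insulin, growth factors and hypoxia. Hk1 stood at 10.16, 10.13 and 10.15 in control cells, 10.93, 10.87 and 10.66 with NF1 RNAi and 10.11, 10.37 and 10.27 with NF1 RNAi + U0126. Every NF1 RNAi array lay above every array of both other groups, and control and inhibitor arrays overlapped. Hk1 rose by 0.67 ± 0.09 with NF1 RNAi (adjusted p = 0.00081), fell by 0.57 ± 0.09 with U0126 (adjusted p = 0.00366) and then differed from control by 0.10 ± 0.09 (adjusted p = 0.4). Hk2 was dim, at 5.49, 5.26 and 5.28 in control cells and 5.54, 5.45 and 5.49 with NF1 RNAi, a difference of 0.15 ± 0.16 (adjusted p = 0.555). With the inhibitor it was at 6.82, 6.10 and 6.66, above all 6 other arrays, a rise of 1.03 ± 0.16 over NF1 RNAi (adjusted p = 0.00371) and of 1.19 ± 0.16 over control (adjusted p = 0.000538). Hk1 and Hk2 therefore went opposite ways with the inhibitor.

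The hexokinase control probe sets read the 3′ end, the middle and the 5′ end of the transcript assigned to Hk1. They followed the Hk1 probe set. The 3′ set was at 8.30, 8.43 and 8.57 in control cells, 9.37, 9.11 and 9.02 with NF1 RNAi and 8.38, 8.67 and 8.75 with NF1 RNAi + U0126. It rose by 0.74 ± 0.12 with NF1 RNAi (adjusted p = 0.00318, limma over all probe sets) and fell by 0.57 ± 0.12 with the inhibitor (adjusted p = 0.0199). The middle set rose by 0.56 ± 0.09 (adjusted p = 0.00242) and fell by 0.38 ± 0.09 (adjusted p = 0.0275). The 5′ set rose by 0.82 ± 0.20 (adjusted p = 0.0194), and its difference with U0126, −0.70 ± 0.20, did not pass in limma (adjusted p = 0.0638). The 3′ minus 5′ difference, which widens as RNA degrades, was largest in Control RNAi replicate 1, at 1.08, against 0.64 and 0.57 for its fellow controls, 0.56 to 0.78 with NF1 RNAi and 0.67 to 0.91 with the inhibitor. The same difference for beta-actin was 0.899 in Control RNAi replicate 1, 0.624 and 0.605 for its fellow controls and 0.785 to 0.874 in the 6 knockdown arrays, and for GAPDH it lay between −0.110 and 0.062 in all arrays. The part of RNA quality in the values of Hk1 and the other listed genes was not tested. All 3 control probe sets had their 3 NF1 RNAi arrays above the 6 others. The second Hk1 probe set, near log2 6, differed by 0.05 ± 0.10 with NF1 RNAi and 0.13 ± 0.10 with U0126, and passed in neither. The mean of both Hk1 probe sets rose by 0.36 (adjusted p = 0.00101) and differed by −0.22 with U0126 (adjusted p = 0.0186), where adjusted p ran from 2.91e-05 to 0.0051 over 16 alternatives for the rise and from 0.00118 to 0.0213 over 16 alternatives for the fall.

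**Figure D3:**
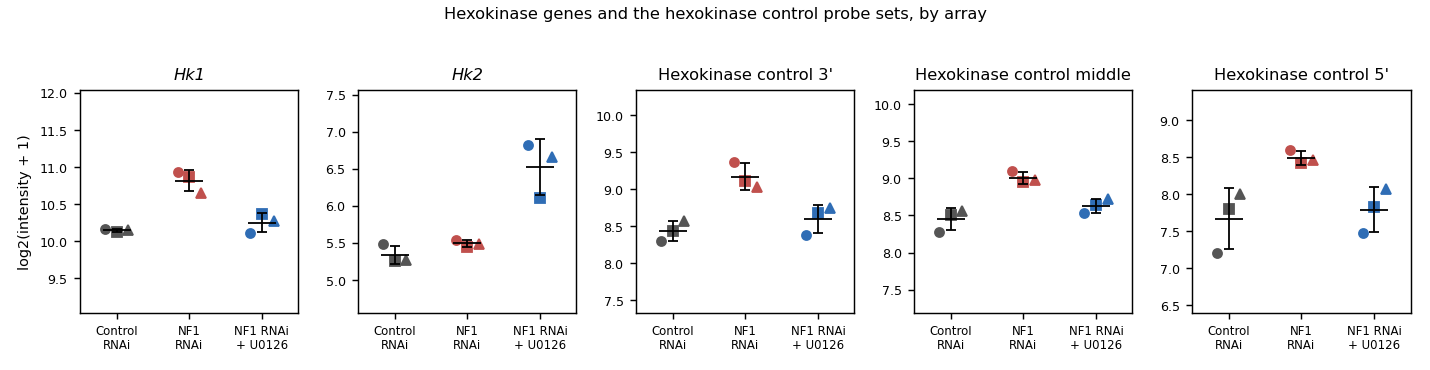
log2(intensity + 1) of Hk1, Hk2 and the 3 hexokinase control probe sets in each array; circles, squares and triangles are replicates 1, 2 and 3, and bars are the group mean ± SD of 3 arrays. Each panel has its own vertical range; Hk1 and the 3 control probe sets are highest with NF1 RNAi, and Hk2 with NF1 RNAi + U0126.

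Phosphofructokinase, the committing step, has 3 subunit genes, of which Pfkp rose with the inhibitor. Pfkp (the platelet type) was at 8.06, 8.55 and 8.42 in control cells, 8.89, 8.68 and 8.35 with NF1 RNAi and 9.92, 10.08 and 10.01 with NF1 RNAi + U0126. Control and NF1 RNAi arrays overlapped (0.29 ± 0.15, adjusted p = 0.206), and all 3 inhibitor arrays lay above them. Pfkp rose by 1.37 ± 0.15 with U0126 (adjusted p = 0.000693), the largest rise among the 35 genes in that comparison, and was 3.16-fold above control. Pfkl (the liver type) was at 7.72, 7.69 and 7.78 with NF1 RNAi and 6.80, 7.31 and 7.48 with the inhibitor, with replicate 1 lowest. The difference of −0.53 ± 0.15 did not pass (adjusted p = 0.0513) but did so with the replicate number as a block (adjusted p = 0.0295; 0.025 to 0.135 over 16 alternatives). It also passed without NF1 RNAi + U0126 replicate 1 (−0.33, adjusted p = 0.0465) or replicate 3 (−0.67, adjusted p = 0.025). Against control Pfkl fell by 0.47 ± 0.15 (adjusted p = 0.0393). That call was lost without any 1 of the 3 control arrays or without NF1 RNAi + U0126 replicate 2 (adjusted p from 0.0558 to 0.112), and without NF1 RNAi + U0126 replicate 1 the difference was −0.27 (adjusted p = 0.0445). Pfkm (the muscle type) differed by −0.03 ± 0.09 and −0.13 ± 0.09 and passed in neither comparison.

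Among the next steps, Gpi, which isomerises glucose 6-phosphate, differed by 0.27 ± 0.10 with NF1 RNAi (adjusted p = 0.0883; 0.00954 with the replicate block, 0.00255 to 0.252 over 16 alternatives) and was 0.44 ± 0.10 above control with the inhibitor present (adjusted p = 0.00882). Without Control RNAi replicate 1 the difference with NF1 RNAi was 0.36 (adjusted p = 0.0177). Aldolase splits fructose 1,6-bisphosphate. Its brain-type gene Aldoc was at 8.36, 8.09 and 7.96 in control cells, 6.92, 7.26 and 7.26 with NF1 RNAi and 6.94, 7.12 and 7.03 with NF1 RNAi + U0126. The control arrays all lay above the 6 others. With NF1 RNAi Aldoc fell by 0.99 ± 0.13 (adjusted p = 0.000667) and with U0126 differed from that level by −0.12 ± 0.13 (adjusted p = 0.614). Aldoa, the broadly expressed gene, fell by 0.17 ± 0.05 (adjusted p = 0.0429), a call lost without any single array of the comparison (adjusted p from 0.0769 to 0.106). The triose phosphate isomerase gene Tpi1 rose by 0.32 ± 0.07 with NF1 RNAi (adjusted p = 0.0108), all 3 arrays lying above the controls at 12.11, 12.09 and 12.11. Its excess over control with the inhibitor present, 0.19 ± 0.07 (adjusted p = 0.0757), passed without NF1 RNAi + U0126 replicate 1 (0.25, adjusted p = 0.0236; 0.00882 to 0.233 over 16 alternatives).

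In lower glycolysis the enolase genes stood on opposite sides of control when the inhibitor was present. Eno2, the enolase known from neurons, was at 9.66, 9.75 and 9.93 in control cells, 10.74, 10.73 and 10.63 with NF1 RNAi and 10.89, 11.00 and 10.98 with NF1 RNAi + U0126. The 3 groups did not overlap and lay in that order. Eno2 rose by 0.92 ± 0.08 with NF1 RNAi (adjusted p = 9.14e-05) and by 1.18 ± 0.08 over control with the inhibitor present (adjusted p = 1.32e-05). The step between the knockdown groups, 0.25 ± 0.08, did not pass (adjusted p = 0.0638, and 0.0178 to 0.176 over 16 alternatives). It passed once all replicate 1 arrays were left out (0.31, adjusted p = 0.0411). Eno1, the broadly expressed enolase, differed by −0.14 ± 0.07 with NF1 RNAi (adjusted p = 0.216) and was 0.33 ± 0.07 lower than control with U0126 present (adjusted p = 0.00693). The phosphoglycerate mutase gene Pgam1 was at 12.65, 12.65 and 12.65 in the control arrays, 11.45, 11.84 and 11.95 with NF1 RNAi and 10.86, 11.53 and 11.51 with NF1 RNAi + U0126. Controls lay above the rest, and replicate 1 was the lowest array of both knockdown groups. Pgam1 fell by 0.91 ± 0.19 (adjusted p = 0.00703), and by 1.36 ± 0.19 against control with the inhibitor (adjusted p = 0.000553). Its difference between the knockdown groups, −0.45 ± 0.19 (adjusted p = 0.157), passed once all replicate 1 arrays were left out (−0.38, adjusted p = 0.00914; 0.00914 to 0.355 over 16 alternatives).

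Pgk1, which makes the first ATP of the pathway, was at 12.72, 12.63 and 12.60 in control cells, 13.02, 12.85 and 12.79 with NF1 RNAi and 12.48, 12.61 and 12.51 with the inhibitor. NF1 RNAi arrays lay above both other groups. Pgk1 rose by 0.24 ± 0.07 (adjusted p = 0.0428) and fell by 0.35 ± 0.07 with U0126 (adjusted p = 0.0135). The rise was lost without Control RNAi replicate 2 or 3 or NF1 RNAi replicate 1 or 2 (adjusted p from 0.0814 to 0.134), and the mean of its 3 probe sets gave 0.15 (adjusted p = 0.142; 0.00509 to 0.142 over 16 alternatives). Gapdh, often used as a reference gene, was read by control probe sets whose group means lay between 12.58 and 12.87. They differed by −0.19 ± 0.08, −0.22 ± 0.08 and −0.17 ± 0.06 with NF1 RNAi, and none of the 3 passed (adjusted p from 0.0836 to 0.129). With NF1 RNAi + U0126 all 3 were lower than control, by 0.22 ± 0.06 to 0.24 ± 0.08 (adjusted p from 0.0263 to 0.0479). Processed pseudogenes of several of these genes are known, and probe sets may also bind their transcripts.

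**Figure D4:**
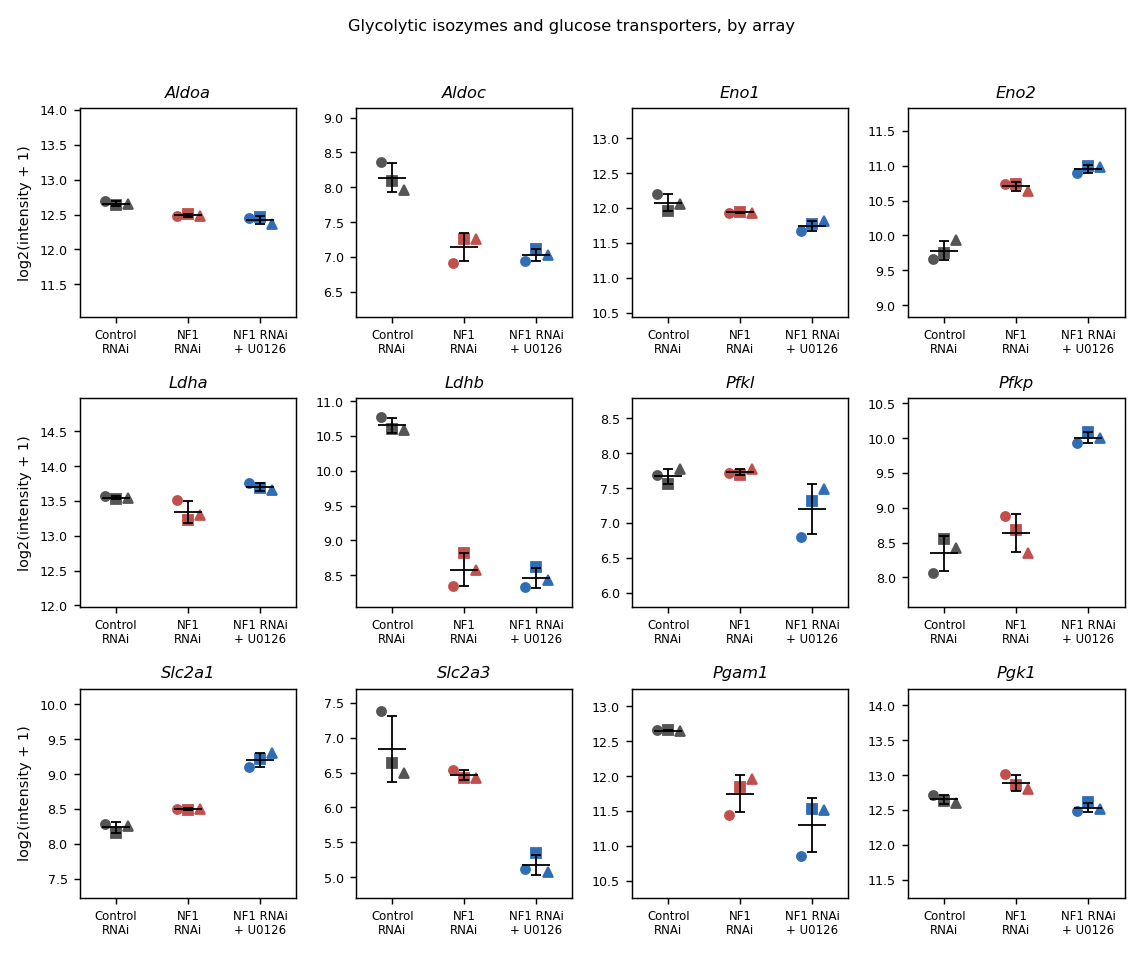
log2(intensity + 1) of 12 glycolytic and glucose transporter genes in each array; circles, squares and triangles are replicates 1, 2 and 3, and bars are the group mean ± SD of 3 arrays. Each panel has its own vertical range of at least 3 log2 units; Ldhb, Aldoc and Pgam1 are highest in the control arrays, Eno2 is lowest there, and Pfkp and Slc2a1 are highest with NF1 RNAi + U0126 while Slc2a3 is lowest.

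The lactate dehydrogenase genes showed the widest separation. Ldha encodes the subunit that favours lactate production, Ldhb the heart-type subunit that favours lactate use. Ldhb was at 10.77, 10.60 and 10.59 in control cells, 8.34, 8.81 and 8.58 with NF1 RNAi and 8.33, 8.62 and 8.43 with NF1 RNAi + U0126. Every control array lay 1.77 log2 units or more above every other array. Ldhb fell by 2.07 ± 0.12 with NF1 RNAi (4.2-fold, adjusted p = 2.38e-05), the largest change of the list, and with the inhibitor it differed from that level by −0.12 ± 0.12 (adjusted p = 0.597). Left-out single arrays moved the fall between −2.19 and −1.95. Ldha, at the 99.7th percentile of genes, was at 13.58, 13.53 and 13.54 in control cells, 13.51, 13.22 and 13.29 with NF1 RNAi and 13.76, 13.68 and 13.66 with NF1 RNAi + U0126. NF1 RNAi arrays were the lowest and inhibitor arrays the highest, without overlap. The first step, −0.21 ± 0.08, did not pass (adjusted p = 0.0842; 0.0442 with the replicate block, 0.00797 to 0.256 over 16 alternatives). It passed without NF1 RNAi replicate 1 (−0.29, adjusted p = 0.0164). Ldha rose by 0.36 ± 0.08 with U0126 (adjusted p = 0.0169), a call lost without NF1 RNAi replicate 2 or 3 or NF1 RNAi + U0126 replicate 1 or 2 (adjusted p from 0.0515 to 0.0662).

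The bases before the start sites of this pair are shown because Ldhb fell with the knockdown while Ldha rose with the inhibitor. Those are different comparisons, and the genes did not pass in opposite directions in any single one. With the inhibitor present, Ldha differed from control by 0.15 ± 0.08 (adjusted p = 0.17). RefSeq gives 250 bases before each start on GRCr8, printed 5′ to 3′ along the gene's own strand. Capitals mark ACGTG or its reverse complement CACGT, the core of the hypoxia response element, and the overlapping palindrome CACGTG is the E-box read by Myc and its partner Max. The 3 other genes are Pfkfb3 and Eno2, the largest rises with NF1 RNAi, and Slc2a1, which rose in each comparison. All 5 were chosen after their values were seen.
Ldha (chr1:106507842-106508091, plus strand): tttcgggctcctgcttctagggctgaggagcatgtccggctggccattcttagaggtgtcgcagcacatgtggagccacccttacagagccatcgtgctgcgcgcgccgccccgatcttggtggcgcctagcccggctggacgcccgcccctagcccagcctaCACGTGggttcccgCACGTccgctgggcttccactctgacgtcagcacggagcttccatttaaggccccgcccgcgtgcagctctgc
Ldhb (chr4:177177409-177177658, minus strand): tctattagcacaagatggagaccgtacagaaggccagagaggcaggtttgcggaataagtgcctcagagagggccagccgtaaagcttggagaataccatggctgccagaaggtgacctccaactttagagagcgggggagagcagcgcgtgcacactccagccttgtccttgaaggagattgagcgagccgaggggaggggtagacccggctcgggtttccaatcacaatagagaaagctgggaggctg
Pfkfb3 (chr17:71944683-71944932, plus strand): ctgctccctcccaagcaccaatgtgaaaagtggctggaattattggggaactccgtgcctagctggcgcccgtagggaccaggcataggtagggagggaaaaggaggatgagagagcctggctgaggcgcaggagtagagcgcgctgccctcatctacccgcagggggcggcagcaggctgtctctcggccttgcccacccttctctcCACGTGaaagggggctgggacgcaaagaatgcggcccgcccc
Eno2 (chr4:159267221-159267470, minus strand): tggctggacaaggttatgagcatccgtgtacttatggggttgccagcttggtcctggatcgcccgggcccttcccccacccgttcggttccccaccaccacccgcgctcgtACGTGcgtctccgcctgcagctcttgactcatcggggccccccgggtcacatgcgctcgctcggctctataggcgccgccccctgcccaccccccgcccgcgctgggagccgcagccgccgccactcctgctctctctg
Slc2a1 (chr5:138002272-138002521, plus strand): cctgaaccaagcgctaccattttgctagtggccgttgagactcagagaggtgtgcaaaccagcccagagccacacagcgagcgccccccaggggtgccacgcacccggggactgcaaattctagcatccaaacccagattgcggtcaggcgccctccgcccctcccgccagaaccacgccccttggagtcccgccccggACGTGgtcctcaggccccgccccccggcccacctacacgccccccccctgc

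Ldha has a CACGTG beginning 87 bases before its start and a CACGT beginning 73 before it, and Ldhb has no match in this window. Pfkfb3 has a CACGTG at 42 bases, Eno2 an ACGTG at 139 and Slc2a1 an ACGTG at 51. Promoter entries matched 34 of the 37 listed genes by symbol, with 39 windows, and 14 of the windows (35.9%) hold the 5-letter motif on either strand, against 20.43% of 13245 windows of the genes tested and 16.57% of all 33469. CACGTG, which is counted within the former, is in 6 of the 39 windows (15.38%), against 7.57% and 5.59%. Besides Ldha and Pfkfb3 these are Bnip3, Hif1a, Pdk2 and Slc16a1. With NF1 RNAi, Pfkfb3, Hif1a and Bnip3 rose among these, and Ldha, Pdk2 and Slc16a1 passed in neither direction. With U0126, Pfkfb3 fell, Ldha and Slc16a1 rose, and Hif1a, Bnip3 and Pdk2 did not pass. The whole list had 48.6% and 28.6% called in these comparisons, against 26.3% and 13.7% of all genes. A group of 6 genes is too small to set against those shares. For the measured listed genes alone, 13 of 37 windows (35.14%) hold the 5-letter motif. The list was made of genes known for these pathways, many of them induced by HIF. A higher share than among all genes was therefore to be expected, and it is no result of these arrays. A match of letters is a description of sequence, and binding was not measured. Windows differ in base composition, which was not tested here.

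The transporters split with the inhibitor as well. Slc2a1 encodes GLUT1, the widespread glucose carrier. It was at 8.29, 8.15 and 8.26 in control cells, 8.51, 8.48 and 8.51 with NF1 RNAi and 9.10, 9.22 and 9.30 with NF1 RNAi + U0126, each group above the one before without overlap. Slc2a1 rose by 0.26 ± 0.07 with NF1 RNAi (adjusted p = 0.0191) and by a further 0.71 ± 0.07 with U0126 (adjusted p = 0.000315), to 1.96-fold over control. The first rise was lost without Control RNAi replicate 2 or any 1 NF1 RNAi array (adjusted p from 0.0503 to 0.0737), whereas the second passed without each of its 6 arrays in turn. Slc2a3 encodes GLUT3, the high-affinity carrier known from neurons. Its levels were 7.38, 6.64 and 6.49 in control cells, 6.54, 6.43 and 6.43 with NF1 RNAi and 5.11, 5.34 and 5.07 with the inhibitor. Control replicate 1 was the highest array, the array that also had the highest proliferation signal; that signal's part in the level was not tested. Slc2a3 differed by −0.37 ± 0.20 with NF1 RNAi (adjusted p = 0.217; −0.10 without that array, adjusted p = 0.498; 0.0769 to 0.498 over 16 alternatives). It fell by 1.29 ± 0.20 with U0126 (adjusted p = 0.00354), where no arrays overlapped. The second Slc2a3 probe set fell by 0.36 ± 0.09 with NF1 RNAi (adjusted p = 0.0232), where the brighter one did not pass, and differed by −0.26 ± 0.09 with the inhibitor (adjusted p = 0.124, limma over all probe sets), and the mean of both by −0.78 (adjusted p = 0.0059; 0.000204 to 0.0175 over 16 alternatives).

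Monocarboxylate transporters carry lactate and pyruvate. Slc16a1 (MCT1, the Schwann cell and oligodendrocyte form) was at 8.79, 8.58 and 8.66 with NF1 RNAi and 9.28, 8.85 and 9.05 with NF1 RNAi + U0126. All inhibitor arrays lay above the NF1 RNAi arrays, and Slc16a1 rose by 0.39 ± 0.11 (adjusted p = 0.0463). That call was lost without any NF1 RNAi array or without NF1 RNAi + U0126 replicate 1 or 3 (adjusted p from 0.0574 to 0.159). Against control the difference of 0.31 ± 0.11 did not pass (adjusted p = 0.0531) and passed with the replicate block (adjusted p = 0.0342; 0.0163 to 0.195 over 16 alternatives). It also passed without NF1 RNAi + U0126 replicate 2 (0.41, adjusted p = 0.0163). Slc16a3 (MCT4, the lactate exporter of glycolytic cells) stayed between 5.95 and 6.23 in all 9 arrays.

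Entry of pyruvate into the citric acid cycle is gated by pyruvate dehydrogenase, which the Pdk kinases switch off. Pdk1, a HIF target, was at 8.75, 8.64 and 8.61 in control cells, 9.11, 9.04 and 8.94 with NF1 RNAi and 8.74, 8.83 and 8.87 with NF1 RNAi + U0126. NF1 RNAi arrays were above both other groups. Pdk1 rose by 0.36 ± 0.07 (adjusted p = 0.00479, and 0.000146 to 0.0214 over 16 alternatives) and differed by −0.22 ± 0.07 with U0126 (adjusted p = 0.0699). The second Pdk1 probe set passed in neither comparison, and its NF1 RNAi arrays overlapped the controls. It differed by 0.28 ± 0.11 with NF1 RNAi (adjusted p = 0.125, limma over all probe sets) and by 0.05 ± 0.11 with U0126 (adjusted p = 0.858). Pdk2 was at 9.95, 10.09 and 10.12 in control cells, 10.55, 10.34 and 10.24 with NF1 RNAi and 11.06, 10.62 and 10.46 with the inhibitor, replicate 1 being the highest array of both knockdown groups. Neither step passed (0.33 ± 0.15, adjusted p = 0.147, and 0.33 ± 0.15, adjusted p = 0.185), and with both together Pdk2 was 0.66 ± 0.15 above control (adjusted p = 0.0075). Leaving out the replicate 1 arrays gave 0.43 (adjusted p = 0.00462; 0.001 to 0.0216 over 16 alternatives), and the second Pdk2 probe set gave 0.65 ± 0.11. Pdk4, the starvation-induced kinase, was dim (5.77 to 6.19) and passed in no comparison, but its other probe set fell by 0.72 ± 0.17 with U0126, from 6.11 ± 0.29 to 5.38 ± 0.16 (SD, adjusted p = 0.0267, limma over all probe sets). Pdha1, the catalytic subunit gene, stayed between 11.02 and 11.26.

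The Pfkfb enzymes make fructose 2,6-bisphosphate, the strongest activator of phosphofructokinase. Pfkfb3, the inducible form, was at 7.62, 7.70 and 7.79 in control cells, 8.69, 8.69 and 8.52 with NF1 RNAi and 8.34, 8.24 and 8.37 with NF1 RNAi + U0126. The groups did not overlap, and the inhibitor group lay between the others. Pfkfb3 rose by 0.93 ± 0.07 with NF1 RNAi (adjusted p = 6.79e-05), the largest rise of the list there, and fell by 0.32 ± 0.07 with U0126 (adjusted p = 0.0209). The fall was lost without NF1 RNAi replicate 1 or 2 or NF1 RNAi + U0126 replicate 2 (adjusted p from 0.0694 to 0.0853). Its probe sets disagreed: a second rose by 0.60 ± 0.13 with NF1 RNAi, and a further one differed by −0.02 ± 0.06 (adjusted p = 0.836, limma over all probe sets). The mean of the 3 gave 0.50 for NF1 RNAi (adjusted p = 0.000411) and −0.15 for U0126 (adjusted p = 0.136), with adjusted p of 2.08e-06 to 0.000757 over 16 alternatives and 0.00399 to 0.136 over 16 alternatives. Pfkfb2, the heart form, was at 6.19, 6.45 and 6.33 in control cells and 6.74, 6.73 and 6.70 with NF1 RNAi, and rose by 0.40 ± 0.12 (adjusted p = 0.0325). This call was lost without Control RNAi replicate 1 or 3 or any NF1 RNAi array (adjusted p from 0.0703 to 0.0866), and the mean of its 4 probe sets gave 0.21 (adjusted p = 0.0253; 0.0125 to 0.149 over 16 alternatives). Without NF1 RNAi + U0126 replicate 2 it also passed against control with the inhibitor (0.31, adjusted p = 0.0465), from 0.19 ± 0.12 with all arrays (adjusted p = 0.237; 0.0465 to 0.897 over 16 alternatives).

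The HIF α subunit genes moved in opposite directions with the knockdown. Hif1a was at 11.12, 11.20 and 11.21 in control cells, 11.49, 11.54 and 11.65 with NF1 RNAi and 11.31, 11.58 and 11.58 with NF1 RNAi + U0126. All 6 knockdown arrays lay above the controls. Hif1a rose by 0.38 ± 0.08 with NF1 RNAi (adjusted p = 0.0101) and stood 0.31 ± 0.08 above control with the inhibitor (adjusted p = 0.0182; lost without NF1 RNAi + U0126 replicate 2 or 3, adjusted p = 0.0687 and 0.0649). HIF-1α is controlled mainly through protein breakdown, which arrays do not read. Epas1 was at 10.36, 9.14 and 9.26 in control cells, 8.47, 8.17 and 8.32 with NF1 RNAi and 8.07, 7.82 and 8.02 with the inhibitor. The groups did not overlap, and Control RNAi replicate 1 lay far above the other controls, as it did for the proliferation genes; their part in this was not tested. With NF1 RNAi Epas1 fell by 1.27 ± 0.28 (adjusted p = 0.00927) and with U0126 present fell by 1.61 ± 0.28 against control (adjusted p = 0.00183). Without Control RNAi replicate 1 the falls were −0.88 (adjusted p = 0.000725) and −1.23 (adjusted p = 7.27e-05). The second Epas1 probe set, at 5.83 in control cells, differed by −0.28 ± 0.13 with NF1 RNAi (adjusted p = 0.181, limma over all probe sets), and the mean of both gave −0.77 (adjusted p = 0.0211; 0.000465 to 0.0381 over 16 alternatives) and, with the inhibitor present, −0.92 (adjusted p = 0.00682; 6.32e-05 to 0.00985 over 16 alternatives).

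Of the prolyl hydroxylases, Egln1 was at 9.49, 9.80 and 9.81 in control cells and 9.29, 9.56 and 9.49 with NF1 RNAi, with replicate 1 lowest in both groups. Its difference of −0.25 ± 0.12 did not pass (adjusted p = 0.149), but did with the replicate block (adjusted p = 0.00921; 0.00921 to 0.377 over 16 alternatives) and without Control RNAi replicate 1 (−0.36, adjusted p = 0.0402). Against control with the inhibitor present, the difference of −0.21 ± 0.12 (adjusted p = 0.196) passed with the block but not without Control RNAi replicate 1 (−0.31, adjusted p = 0.0505; block adjusted p = 0.0162; 0.0162 to 0.474 over 16 alternatives). Egln3, a strongly hypoxia-inducible hydroxylase, lay at the low end of the array, at the 3.8th percentile of genes. Its levels ran from 3.45 to 3.92, where expression is uncertain. It fell by 0.32 ± 0.07 with U0126 (adjusted p = 0.0206), a call lost without NF1 RNAi replicate 2 or 3 or NF1 RNAi + U0126 replicate 1 or 2 (adjusted p from 0.0597 to 0.0838).

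Of the 4 genes listed for their response to hypoxia, Vegfa and Bnip3 rose with NF1 RNAi, and Ndrg1 and Adm did not pass. Vegfa, the vascular growth factor gene, was at 9.10, 8.91 and 8.72 in control cells, 9.82, 9.63 and 9.51 with NF1 RNAi and 9.48, 9.15 and 9.10 with NF1 RNAi + U0126. NF1 RNAi arrays lay above all others, and replicate 1 was the highest of each group. Vegfa rose by 0.74 ± 0.13 (adjusted p = 0.00372), and its other probe set by 0.52 ± 0.09. The differences with U0126 (−0.41 ± 0.13, adjusted p = 0.079) and against control (0.33 ± 0.13, adjusted p = 0.0817) did not pass, but did with the replicate block (adjusted p = 0.00319 and 0.00283; 0.00319 to 0.217 and 0.00283 to 0.24 over 16 alternatives each). The first also passed without NF1 RNAi + U0126 replicate 1 (−0.53, adjusted p = 0.0333), the second without Control RNAi replicate 1 (0.43, adjusted p = 0.0358). On the other Vegfa probe set the difference with U0126, −0.21 ± 0.09, did not pass (adjusted p = 0.2, limma over all probe sets). Its difference against control, 0.31 ± 0.09, did (adjusted p = 0.0258), as did the mean of both probe sets (0.32, adjusted p = 0.0291).

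Ndrg1, a hypoxia and differentiation gene that Schwann cells need for stable myelin, was at 10.43, 10.92 and 11.00 in control cells, 8.94, 10.00 and 10.32 with NF1 RNAi and 8.58, 9.70 and 9.64 with NF1 RNAi + U0126. Replicate 1 was the lowest array of every group by 0.49 or more, and both knockdown groups lay below the controls. The difference with NF1 RNAi, −1.03 ± 0.39, did not pass (adjusted p = 0.0865), whereas it passed with the replicate block (adjusted p = 0.00192; 0.00154 to 0.242 over 16 alternatives). Without NF1 RNAi replicate 1 it was −0.63 (adjusted p = 0.242). With U0126 present Ndrg1 was lower than control by 1.48 ± 0.39 (adjusted p = 0.0167; lost without Control RNAi replicate 2 or 3, adjusted p = 0.0529 and 0.0535). Between the knockdown groups it differed by −0.45 ± 0.39 (adjusted p = 0.529), which passed without the replicate 1 arrays (−0.49, adjusted p = 0.0194; 0.0194 to 0.926 over 16 alternatives) and ranged from −0.85 without NF1 RNAi replicate 1 to −0.08 without NF1 RNAi + U0126 replicate 1. Its second probe set gave −0.69 ± 0.28 and −0.99 ± 0.28 for the comparisons with control. Bnip3, a mitochondrial autophagy gene, rose by 0.17 ± 0.05 with NF1 RNAi (adjusted p = 0.0458). That small rise was lost with the replicate block (adjusted p = 0.0562; 0.00528 to 0.172 over 16 alternatives) and without any control array or NF1 RNAi replicate 1 or 2 (adjusted p from 0.0669 to 0.144). Adm, the adrenomedullin gene, was dim (5.01 to 5.52) and passed in no comparison.

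**Figure D5:**
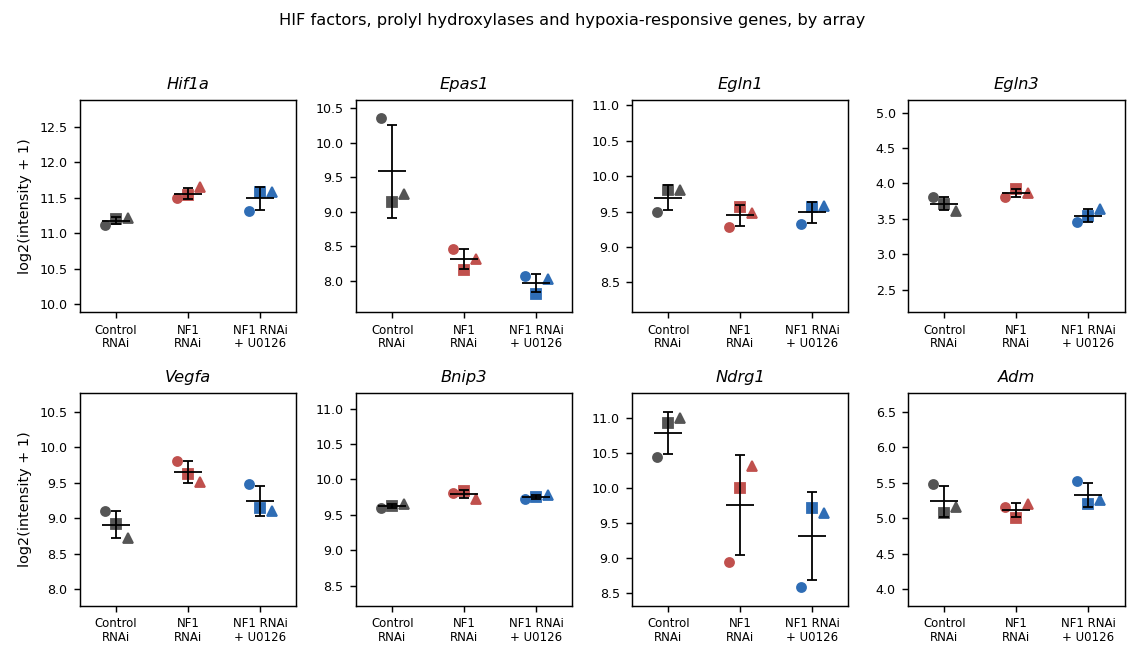
log2(intensity + 1) of the HIF α subunit genes, the prolyl hydroxylase genes and 4 hypoxia-responsive genes in each array; circles, squares and triangles are replicates 1, 2 and 3, and bars are the group mean ± SD of 3 arrays. Each panel has its own vertical range of at least 3 log2 units; Hif1a and Vegfa are higher with NF1 RNAi than in control arrays, Epas1 is lower, and replicate 1 of each group is lowest for Ndrg1.

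In the pentose phosphate pathway, transketolase (Tkt) links its non-oxidative branch to glycolysis. Tkt was at 11.38, 11.14 and 11.13 in control cells, 10.49, 10.87 and 10.85 with NF1 RNAi and 10.39, 10.65 and 10.59 with NF1 RNAi + U0126. Control arrays lay above all others, and replicate 1 was highest in the controls but lowest in the knockdown groups. With NF1 RNAi Tkt fell by 0.48 ± 0.12 (adjusted p = 0.0186; −0.36 and adjusted p = 0.0501 without NF1 RNAi replicate 1; −0.28 and adjusted p = 0.018 without all replicate 1 arrays; 0.00633 to 0.0501 over 16 alternatives). Against control it was 0.67 ± 0.12 lower with the inhibitor (adjusted p = 0.00247). Between the knockdown groups it differed by −0.19 ± 0.12 (adjusted p = 0.352), which passed without the replicate 1 arrays (−0.24, adjusted p = 0.0404; 0.0404 to 0.681 over 16 alternatives). Pgd, the second NADPH-producing enzyme, differed by −0.09 ± 0.14 and 0.05 ± 0.14 and passed in neither. Of 8 further measured genes of the pathway, 1 rose and 2 fell with NF1 RNAi (37.5%, against 26.3% of all genes): Prps2 rose by 0.57 ± 0.13 (adjusted p = 0.0129), and Rpia and Pgls fell by 0.39 ± 0.10 and 0.25 ± 0.06. With U0126, 1 rose and 2 fell (37.5%, against 13.7%). The transaldolase gene Taldo1, which works beside transketolase, was at 12.55, 12.39 and 12.33 with NF1 RNAi and 13.23, 13.21 and 13.19 with the inhibitor, a rise of 0.79 ± 0.07 (adjusted p = 0.000196), while Prps2 and Rpe fell by 0.56 ± 0.13 and 0.33 ± 0.08.

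Neighbouring pathways were read from lists of further genes. Their shares stand against 26.3% of all genes called with NF1 RNAi and 13.7% with U0126. Of 16 other glycolysis and glucose uptake genes, 1 rose and 2 fell with NF1 RNAi (18.8%), and 1 fell with U0126 (6.25%), both below the shares of all genes. The monocarboxylate transporter gene Slc16a7 (MCT2) fell by 1.57 ± 0.28 with NF1 RNAi (adjusted p = 0.00394), Adpgk fell by 0.59 ± 0.11, and Bsg (basigin, the chaperone of the lactate carriers) rose by 0.32 ± 0.08. The glucose transporter gene Slc2a8 fell by 0.94 ± 0.11 with U0126 (adjusted p = 0.000872). Of 10 genes of pyruvate entry, 2 rose and 3 fell with NF1 RNAi (50%), and 2 rose and 2 fell with U0126 (40%). Pyruvate carboxylase (Pc) fell by 0.98 ± 0.22 with NF1 RNAi (adjusted p = 0.0105), Mpc1, a subunit of the mitochondrial pyruvate carrier, rose by 0.49 ± 0.07 and Pdk3 fell by 0.45 ± 0.07. Mpc2 and Pdhb, named after their values were seen to complete that count, differed by −0.27 ± 0.06 and 0.35 ± 0.06. With the inhibitor Mpc1 rose by 0.35 ± 0.07, and the pyruvate dehydrogenase phosphatase genes Pdp1 and Pdp2 went opposite ways, falling by 0.70 ± 0.13 and rising by 0.46 ± 0.06, and Mpc2 fell by 0.24 ± 0.06.

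Of 15 glycogen and gluconeogenesis genes, 1 rose and 6 fell with NF1 RNAi (46.7%, against 26.3% of all genes), and none passed with U0126 in limma (0 at an unadjusted p under 0.05). The falls were led by the gluconeogenic enzyme gene Pck2 (−0.91 ± 0.18, adjusted p = 0.00673), the glycogen primer Gyg1 (−0.73 ± 0.10) and the glycogen phosphorylase gene Pygl (−0.65 ± 0.13). For Pck2, Control RNAi replicate 1 was at 9.03, against 8.26 and 8.35 for its fellow controls, which widened the fall. The rise, named after it was seen, was that of the phosphoglucomutase gene Pgm1 (0.50 ± 0.11). Of 29 further HIF regulators and hypoxia targets, 6 rose and 3 fell with NF1 RNAi (31%, near the 26.3% of all genes), and 1 fell with U0126 (3.45%, below the 13.7% of all genes). Bhlhe40, a hypoxia-inducible repressor, fell by 1.84 ± 0.34 (adjusted p = 0.00453). The secreted hormone gene Stc2 rose by 1.38 ± 0.33 and Cited2, which competes with HIF for its coactivator, rose by 1.07 ± 0.29. Control RNAi replicate 1 widened the differences of Bhlhe40 and Cited2. The control arrays were at 7.06, 5.73 and 5.49 for Bhlhe40, against a dim NF1 RNAi mean of 4.26, and at 10.87, 11.74 and 12.00 for Cited2. P4ha2, a collagen prolyl hydroxylase, fell by 0.76 ± 0.08 with U0126 (adjusted p = 0.000435). Among 18 energy sensing and growth regulators, 2 rose and 1 fell with NF1 RNAi (16.7%) and 2 rose and 2 fell with U0126 (22.2%). Myc, a transcriptional activator of glycolytic genes, was at 7.66, 8.03 and 7.96 in control cells, 6.74, 7.45 and 7.26 with NF1 RNAi and 5.67, 5.99 and 6.08 with NF1 RNAi + U0126. It fell by 0.73 ± 0.19 (adjusted p = 0.019) and by a further 1.24 ± 0.19 with the inhibitor (adjusted p = 0.00313). Esrra and Prkab1 rose by 0.39 ± 0.09 and 0.36 ± 0.10 with NF1 RNAi, and with U0126 Mlxip rose by 0.40 ± 0.08, and Ppargc1a by 0.33 ± 0.07. Prkaa1, likewise named afterwards, fell by 0.26 ± 0.07. Of the 10 proliferation genes 7 fell with NF1 RNAi (70%), led by Ccna2 (−3.35 ± 0.60), Mki67 (−3.24 ± 0.65) and Cdk1 (−2.87 ± 0.58), and none passed with U0126 (0 at an unadjusted p under 0.05). Their part in the changes of the glycolytic genes was not tested.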

How the data were processed

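RNA from 9 cultures was hybridised to Affymetrix rat arrays, 1 array per sample. The authors deposited linear intensity values of 31099 probe sets, normalized with RMA per the submitters' processing notes; its version and settings are not stated there. RMA compresses differences of dim probe sets, and array values give no read depth, so the 3 arrays per group set the precision. No scan date or other batch was given in the sources used here. The probe annotation listed exactly 1 gene for 20826 probe sets, several for 436 and none for 9780. Symbols were brought up to RefSeq's names through the gene ID (20758), accession (2) or an older symbol (62), and 4 were kept.

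Here log2(intensity + 1) was fitted with limma 3.58.1 in R 4.3.3 (lmFit, eBayes, 3 group means, 9 arrays, no filter on dim values), with Benjamini-Hochberg adjustment over 14213 genes. Other probe sets and control probe sets were fitted together over all probe sets. The fit was tested on simulated data. Tables and figures used Python 3.11.15, pandas 2.3.3 and matplotlib 3.10.9.

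The listed genes, the further pathway lists and the cell type markers were chosen with earlier results of these data known. Named were all listed genes, Nf1, the markers and, from each further list, up to 3 genes past the threshold with the largest difference in each of the first pair of comparisons. Promoter windows come from RefSeq's GRCr8 table, by symbol; Pgk1, Ndrg1 and Slc2a3 had no entry.

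Same-numbered samples deviated together: their deviations from the group means correlated at 0.167 to 0.619 in 9 of 9 pairs, against −0.516 to 0.402 for other numbers. The numbers, taken from the sample titles, thus met the criterion for pairing (every pair above 0.1), although the labels do not say what a number marks. Every negative value involved a replicate 1 array. Among replicates 2 and 3, other-number pairs correlated at 0.14 to 0.402 and same-number pairs at 0.167 to 0.337. The criterion therefore set replicate 1 apart, and did not tell numbers 2 and 3 from each other. The calls printed are nevertheless from the unblocked fit, and the blocked value stands beside each listed gene whose call it changes. The replicate block was an alternative, as were no pseudocount, leaving out probe sets under log2 6, median centring, quantile normalization, averaging probe sets per gene, array weights, robust eBayes with an intensity trend, a fit restricted to the groups at hand, an adjusted p under 0.01, and leaving out each array or all replicate 1 arrays.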

Additional observations from a re-analysis of the deposited data

How the results depend on the processing

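With 3 arrays per group, small differences sat near the threshold. Calls that passed under every alternative tried numbered 9 of 17 for NF1 RNAi against control, 5 of 10 for U0126 against NF1 RNAi and 15 of 18 for NF1 RNAi + U0126 against control; apart from the stricter adjusted p they were 11, 6 and 15. None of the calls reversed under the alternatives run. Over the 3 comparisons, the listed genes and the alternatives, 533, 548 and 554 values kept their side of the threshold, 43, 25 and 14 lost a call and 17, 20 and 25 gained one.

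Array weights, whose estimate did not reach its convergence tolerance, raised the count of all genes called from 3734 to 5980 with NF1 RNAi and from 1951 to 3261 with U0126; the cause was not tested. An adjusted p under 0.01 left 2116 genes and 9 listed genes with NF1 RNAi, 904 and 5 with U0126, and 3303 genes for NF1 RNAi + U0126 against control, by its construction. Leaving out 1 array, which also removes a sample, gave 2790 to 3606 genes and 12 to 16 listed genes with NF1 RNAi, 1110 to 1612 and 6 to 10 with U0126, and 4107 to 5089 and 16 to 19 for NF1 RNAi + U0126 against control. The lowest U0126 counts were 1110 without NF1 RNAi replicate 2 and 1226 without NF1 RNAi + U0126 replicate 2.

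With the replicate block, 4547, 2790 and 5793 genes and 20, 12 and 21 listed genes passed in the 3 comparisons. Apart from the listed genes given above with their blocked values (Bnip3, Gpi, Ldha, Egln1, Ndrg1, Pfkl, Vegfa and Slc16a1), the block changed no call of a listed gene. Pairing was read from the numbers in the titles.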
